A study of Mus musculus with 12 samples.

Results

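Transcript levels of 10 genes that carry out the transfer of long-chain fatty acids into mitochondria and their beta-oxidation there were examined in dendritic cells (DCs) derived from mouse bone marrow. The genes were *Cpt1a*, *Cpt2*, *Acadvl*, *Acadl*, *Acadm*, *Acads*, *Hadha*, *Hadhb*, *Hadh* and *Acaa2*. They were chosen by symbol as the core of the pathway, 10 of 55471 genes in the count table, and all 10 had enough reads to be tested among 18228 genes. The marrow came from female adult C57BL/6 mice and was cultured with the growth factor GM-CSF, and the cells were infected with a retrovirus that carried a short hairpin RNA (shRNA) and a human CD8 reporter, on which the cells were then sorted. The hairpin targeted firefly luciferase (shControl), which mouse cells lack, or *Ppargc1b* (sh*Ppargc1b*), which encodes PGC-1β, a co-activator of transcription. The study used 1 of its *Ppargc1b* hairpins in most experiments, and the labels do not say which these libraries carried. Cells were left unstimulated or received interferon-β (IFN-β), an antiviral cytokine, for 6 h, which gave 4 groups of 3 libraries. Cells of all 4 groups therefore carried a retrovirus and had been sorted. The comparisons asked how lower *Ppargc1b* expression alters these transcripts with and without IFN-β, and how IFN-β alters them.

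Long-chain fatty acids enter mitochondria as carnitine esters, which CPT1 makes on the outer membrane and CPT2 turns back into acyl-CoA inside. Beta-oxidation then repeats a cycle in which an acyl-CoA dehydrogenase introduces a double bond, a hydratase adds water, a 3-hydroxyacyl-CoA dehydrogenase oxidises the hydroxyl group and a thiolase releases acetyl-CoA. The electrons pass through electron transfer flavoprotein to ubiquinone, and acetyl-CoA enters the tricarboxylic acid cycle. PGC-1 co-activators bind nuclear receptors such as the estrogen-related receptors and the peroxisome proliferator-activated receptors (PPARs), which act on many genes of this pathway.

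Promoter windows of 9 of the 10 genes were found in a RefSeq table (GRCm38.p6), each with 250 bases before the start site and 50 from it. Of these, 3 windows and the stretch that a pair of genes shares are printed here in lower case, where capitals mark matches to the estrogen-related receptor, NRF1 and ETS letters spelled out after them, because they belong to the gene that fell most under knockdown in unstimulated cells (*Cpt1a*), to the genes with a match to those letters (*Acadm*, *Cpt2*) and to a divergent pair whose transcripts fell by unequal amounts (*Hadha* and *Hadhb*). The *Cpt1a* window lies at chr19:3323051-3323350 on the plus strand, the *Cpt2* window at chr4:107923540-107923839 and the *Acadm* window at chr3:153944594-153944893, both on the minus strand. The RefSeq start sites of *Hadha* (minus strand, base 30154980 of chromosome 5) and *Hadhb* (plus strand, base 30155253) were 273 bases apart. The GENCODE gene bounds given below differ, with outermost starts at base 30155162 for *Hadha* and 30155248 for *Hadhb*. By those bounds part of the stretch the pair shares lies within *Hadha*. The *Cpt1a* window likewise lies within the GENCODE bounds of its gene, which begin at base 3322334. Their windows share 228 bases at chr5:30155003-30155230, written here in the direction of *Hadhb*.
Cpt1a: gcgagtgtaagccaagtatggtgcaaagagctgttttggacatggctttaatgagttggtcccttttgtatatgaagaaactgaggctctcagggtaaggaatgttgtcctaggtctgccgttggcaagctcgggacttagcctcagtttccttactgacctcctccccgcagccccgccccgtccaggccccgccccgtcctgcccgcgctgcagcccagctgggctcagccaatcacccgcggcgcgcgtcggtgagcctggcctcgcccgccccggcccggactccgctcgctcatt
Cpt2: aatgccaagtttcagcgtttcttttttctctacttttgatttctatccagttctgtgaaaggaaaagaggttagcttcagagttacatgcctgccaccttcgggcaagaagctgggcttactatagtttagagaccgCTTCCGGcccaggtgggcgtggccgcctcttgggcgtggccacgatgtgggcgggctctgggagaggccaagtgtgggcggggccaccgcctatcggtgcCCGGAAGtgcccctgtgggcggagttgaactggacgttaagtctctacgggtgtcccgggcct
Acadm: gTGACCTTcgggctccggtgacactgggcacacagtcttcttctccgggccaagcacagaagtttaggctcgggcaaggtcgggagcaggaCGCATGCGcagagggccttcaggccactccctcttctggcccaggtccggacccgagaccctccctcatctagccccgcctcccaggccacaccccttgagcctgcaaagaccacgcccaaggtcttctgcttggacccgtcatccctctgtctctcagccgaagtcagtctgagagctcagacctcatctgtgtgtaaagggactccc
Hadha and Hadhb, shared: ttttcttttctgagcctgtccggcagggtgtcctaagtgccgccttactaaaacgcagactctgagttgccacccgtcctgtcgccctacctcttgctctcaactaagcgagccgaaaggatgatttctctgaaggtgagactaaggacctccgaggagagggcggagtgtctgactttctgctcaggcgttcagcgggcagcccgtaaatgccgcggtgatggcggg

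The letters AAGGTCA, the half-site that estrogen-related receptors prefer, were found in the *Acadm* window only, on the opposite strand with its first base at -249 from the start site, against 4.72% of 32817 RefSeq promoter windows. The letters GCATGCG, the core of a nuclear respiratory factor 1 (NRF1) site, were also found in *Acadm* only, as overlapping matches on both strands with first bases at -158 and -159, against 3.57% of windows. The letters CCGGAAG, an ETS core of the kind GABP binds, occurred in *Cpt2* only, once on each strand, at -13 and -113, against 8.86% of windows. AGGTCA alone, which AAGGTCA contains, was in the windows of *Cpt1a*, *Acadvl* and *Acadm* and in 16.3% of all windows, and a direct repeat of AGGTCA with 1 base between (DR1) was in none of the 9 and in 0.0396% of all. All letters were searched on both strands, and a match is a description of the sequence rather than evidence of binding.

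The libraries held 49.9 to 77.7 M counts, and counts of the 10 genes ran from 531 to 11111 per library, so that none was near the limit of detection. Levels are given as counts per M counts (CPM) after TMM scaling, which sets library sizes by a trimmed mean of log ratios, and as mean ± SD over 3 libraries. Without stimulation the *Ppargc1b* level was 33.4, 33.3 and 36.7 CPM in the shControl libraries and 18.6, 19.3 and 20.3 CPM in the sh*Ppargc1b* libraries. With IFN-β it was 31.4, 23.6 and 28.4 CPM in shControl and 19.6, 15.5 and 20.9 CPM in sh*Ppargc1b*. The knocked-down libraries thus had the lower level in both conditions, and residual transcript remained. Of 9 dendritic cell markers, all were above 1 CPM, as were all 8 macrophage markers, whereas all 6 lymphocyte and all 4 erythroid markers averaged under 1 CPM. Under knockdown 5 dendritic markers rose and 0 fell in each condition, and 1 macrophage marker rose while 3 fell in each. Of all tested genes, 12.4% rose and 11.1% fell under knockdown unstimulated, and 11.5% rose and 12.7% fell with IFN-β. Summed dendritic marker levels were 4660 to 5530 CPM in the shControl libraries without stimulation and 5390 to 6240 CPM in their sh*Ppargc1b* counterparts, and summed macrophage marker levels were 2150 to 2240 and 2030 to 2050 CPM. With IFN-β the dendritic sums were 5180 to 6250 CPM in shControl and 6060 to 6960 CPM in sh*Ppargc1b*, and the macrophage sums 2470 to 2600 and 2260 to 2290 CPM. Of 7 neutrophil markers, *Ly6g*, *Camp*, *Elane* and *Mpo* averaged under 1 CPM and 1 rose in each condition, with summed levels of 35.6 to 73.9 CPM in unstimulated shControl against 73.4 to 126 CPM in unstimulated sh*Ppargc1b*, and 31.3 to 76.0 against 66.7 to 121 CPM with IFN-β. Of 6 mast cell or basophil markers, *Mcpt8*, *Fcer1a*, *Ms4a2* and *Tpsb2* averaged under 1 CPM and 1 rose in each condition, with sums of 7.31 to 14.9 against 16.9 to 20.1 CPM unstimulated and 6.12 to 13.2 against 9.52 to 17.1 CPM with IFN-β. In bulk RNA, fewer cells of a type and less RNA per cell cannot be told apart, and the part of these shifts in the results on fatty acid oxidation genes was not tested.

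Knockdown of *Ppargc1b* was accompanied by lower transcript levels of most of the pathway. In unstimulated DCs 8 of the 10 genes fell and 0 rose at an adjusted p under 0.05, where 11.1% of all tested genes fell. The median log2 fold change of the 10 was -0.36, beside 0.00 for all tested genes. The genes that did not pass were *Cpt2* and *Acadl*. With IFN-β 6 of 10 fell and 0 rose, where 12.7% of all tested genes fell, and the median was -0.25, beside -0.01 for all genes. The genes that fell in both conditions were *Cpt1a*, *Acadvl*, *Hadha*, *Hadhb*, *Hadh* and *Acaa2*, 6 of 10 against 7.37% of all tested genes. By library, the 3 knocked-down values lay below the 3 control values for 9 of 10 genes without IFN-β and for 9 of 10 with it, the exception being *Acadl* both times; 18.4% and 20.7% of all tested genes showed that separation downward. The plot of CPM by library shows these levels for each gene.

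**Figure D1:**
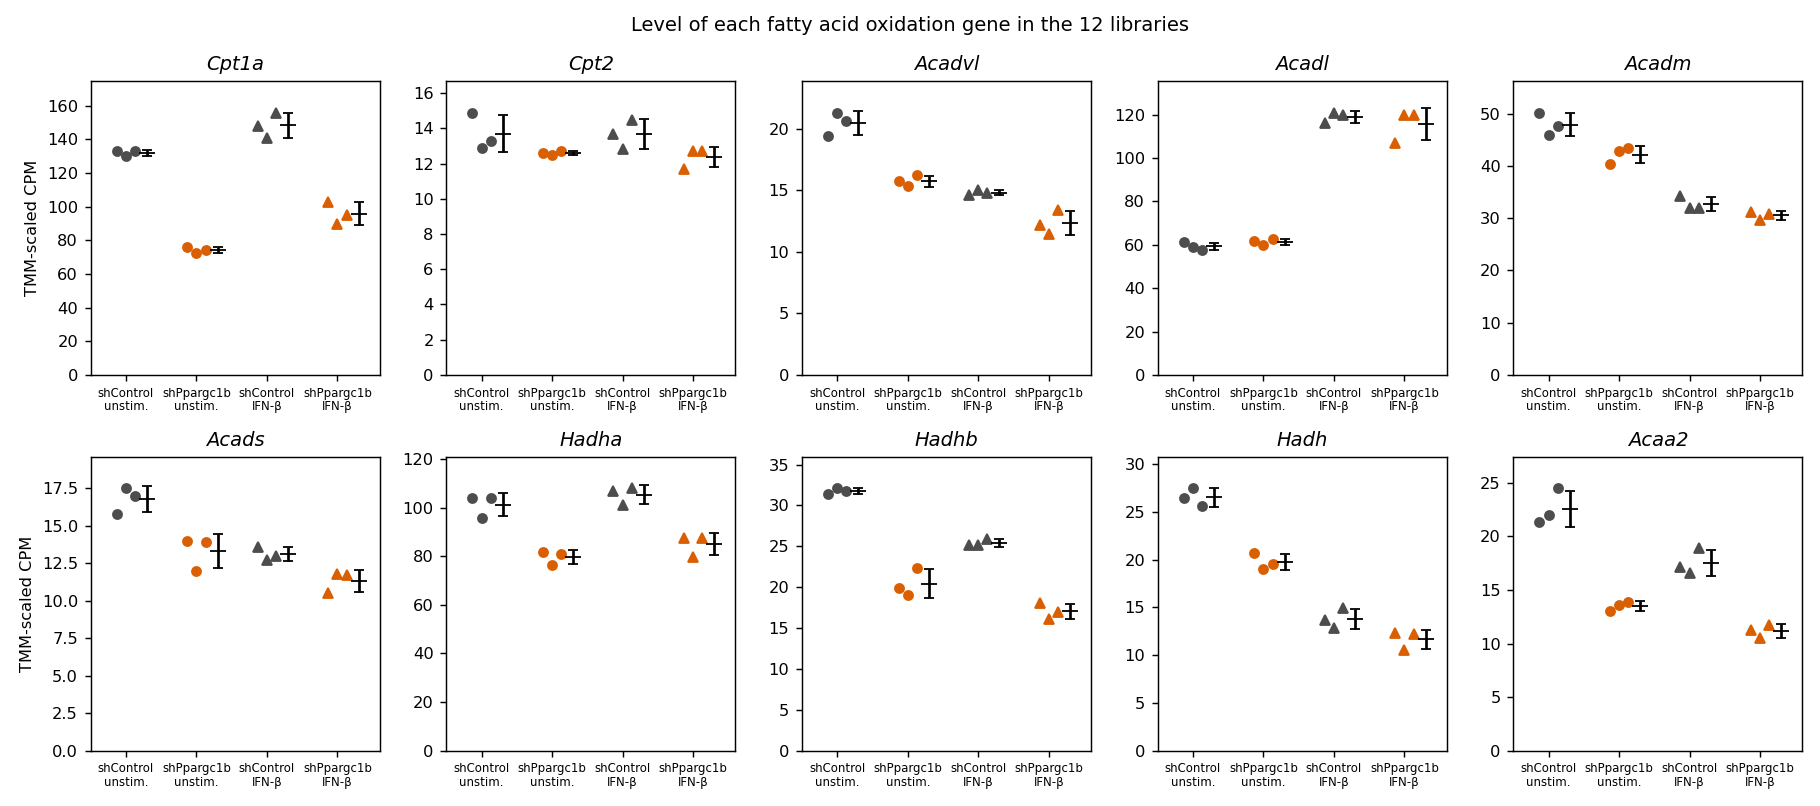
TMM-scaled CPM (vertical axis, from 0) of the 10 genes in each library, with circles for unstimulated and triangles for IFN-β-treated cells, grey for shControl and orange for sh*Ppargc1b*; bars give mean ± SD of 3 libraries. *Cpt1a* falls from 130 to 133 CPM in unstimulated shControl to 72.6 to 75.8 CPM in unstimulated sh*Ppargc1b*, and *Acadl* stands near 60 CPM in every unstimulated library and at 107 to 121 CPM in every IFN-β library.

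*Cpt1a* (ENSMUSG00000024900, chr19:3322334-3385733 of GRCm38, plus strand) encodes the liver-type carnitine palmitoyltransferase of the outer membrane, the step that limits entry of long-chain fatty acids. Its level was 133, 130 and 133 CPM in the shControl libraries without stimulation and 75.8, 72.6 and 74.5 CPM in their sh*Ppargc1b* counterparts. With IFN-β it was 148, 141 and 156 CPM in shControl and 103, 89.9 and 94.8 CPM in sh*Ppargc1b*. No knocked-down library reached any control library, even across conditions, so that the order from high to low was IFN-β-treated shControl, unstimulated shControl, IFN-β-treated sh*Ppargc1b* and unstimulated sh*Ppargc1b*, with no overlap between neighbours. The log2 fold change under knockdown was -0.83 ± 0.05 (SE, adjusted p = 2.9e-08) unstimulated, which left 56.3% of the control level, and -0.63 ± 0.05 (adjusted p = 5.1e-07) with IFN-β, which left 64.4%. *Cpt1a* had the largest fall of the 10 genes in the unstimulated comparison and *Acaa2* in the IFN-β comparison.

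*Cpt2* (ENSMUSG00000028607, chr4:107903981-107923610, minus strand), the inner-membrane partner of CPT1, was expressed at 14.9, 12.9 and 13.3 CPM in the shControl libraries without stimulation and at 12.6, 12.5 and 12.7 CPM in their sh*Ppargc1b* counterparts. In IFN-β-treated cells the values were 13.7, 12.8 and 14.5 CPM in shControl and 11.7, 12.7 and 12.7 CPM in sh*Ppargc1b*. The groups were separated by small gaps, and the whole spread over 12 libraries was 11.7 to 14.9 CPM. Neither knockdown difference passed the test, at a log2 fold change of -0.12 (95% CI -0.27 to 0.03, adjusted p = 0.272) unstimulated and -0.14 (95% CI -0.30 to 0.01, adjusted p = 0.176) with IFN-β. The ratio of *Cpt1a* to *Cpt2* CPM within a library was 9.68 ± 0.658 in unstimulated shControl and 5.90 ± 0.104 in unstimulated sh*Ppargc1b*, and 10.9 ± 0.159 against 7.79 ± 0.899 with IFN-β. The groups did not overlap in either condition. This ratio and those of other gene pairs were chosen after the values were seen and are given without a test.

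The acyl-CoA dehydrogenases, which differ in the chain length they prefer, did not move together. *Acadl* (ENSMUSG00000026003, chr1:66830839-66863277, minus strand), the long-chain enzyme, was at 61.1, 58.8 and 57.8 CPM in the shControl libraries without stimulation and at 61.7, 59.9 and 62.7 CPM in their sh*Ppargc1b* counterparts. With IFN-β its level was 116, 121 and 120 CPM in shControl and 107, 120 and 120 CPM in sh*Ppargc1b*. The values of the knocked-down and control groups overlapped in both conditions. The knockdown log2 fold change was 0.05 (95% CI -0.05 to 0.15, adjusted p = 0.464) unstimulated and -0.05 (95% CI -0.14 to 0.05, adjusted p = 0.521) with IFN-β, so that an unstimulated change larger than 0.15 in either direction lay outside the interval.

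*Acadvl* (ENSMUSG00000018574, chr11:70010183-70015411, minus strand), the very-long-chain enzyme of the inner membrane, was at 19.4, 21.3 and 20.6 CPM in the shControl libraries without stimulation and at 15.7, 15.3 and 16.2 CPM in their sh*Ppargc1b* counterparts. The IFN-β-treated libraries had 14.6, 15 and 14.8 CPM against 12.2, 11.4 and 13.4 CPM. Knocked-down libraries were below control libraries in both conditions, with log2 fold changes of -0.38 ± 0.07 (adjusted p = 0.00053) in unstimulated and -0.26 ± 0.07 (adjusted p = 0.00996) in IFN-β-treated cells. Its exons share 1151 bases, 42.9% of their length, with *Dvl2* on the opposite strand. The strand setting of the counting is not stated, so it is not known whether and to which gene reads in those bases were counted. *Dvl2*, named here after its values were seen, was at 15.1 ± 0.99 CPM in the shControl libraries without stimulation and 13.6 ± 0.72 CPM in unstimulated sh*Ppargc1b*, at a log2 fold change of -0.15 (adjusted p = 0.204). *Dvl2* fell with IFN-β in both arms, at log2 fold changes of -0.35 (shControl, adjusted p = 0.0027) and -0.29 (sh*Ppargc1b*, adjusted p = 0.011).

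*Acadm* (ENSMUSG00000062908, chr3:153922357-153944632, minus strand), the medium-chain enzyme, was at 50.2, 45.9 and 47.6 CPM in the shControl libraries without stimulation and at 40.3, 42.8 and 43.4 CPM in their sh*Ppargc1b* counterparts, and at 34.2, 32.0 and 31.9 CPM against 31.2, 29.6 and 30.8 CPM with IFN-β. Its log2 fold change of -0.19 ± 0.05 (adjusted p = 0.0126) was the smallest of the 8 that passed in unstimulated cells. Without replicate 1 of unstimulated shControl the adjusted p was 0.071, and without replicate 1 of unstimulated sh*Ppargc1b* it was 0.0571. With IFN-β the value was -0.10 ± 0.05 (adjusted p = 0.196). *Acads* (ENSMUSG00000029545, chr5:115110299-115119346, minus strand), the short-chain enzyme, was at 15.8 to 17.5 CPM in the shControl libraries without stimulation and 12 to 14 CPM in their sh*Ppargc1b* counterparts, a log2 fold change of -0.34 ± 0.08 (adjusted p = 0.00378). In IFN-β-treated cells its range was 12.7 to 13.6 CPM in shControl and 10.5 to 11.8 CPM in sh*Ppargc1b*, and the difference of -0.21 ± 0.08 missed the threshold (adjusted p = 0.0597) but passed in DESeq2 (adjusted p = 0.0438). The *Acadl* to *Acadm* ratio was 1.24 ± 0.0384 in unstimulated shControl and 1.46 ± 0.0666 in unstimulated sh*Ppargc1b*, and these groups did not overlap. With IFN-β it was 3.65 ± 0.224 in shControl and 3.78 ± 0.315 in sh*Ppargc1b*, and those groups overlapped.

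*Hadha* and *Hadhb* encode the alpha and beta subunits of the mitochondrial trifunctional protein, which carries hydratase, 3-hydroxyacyl-CoA dehydrogenase and thiolase activity for long chains. The genes are neighbours on chromosome 5 and are read in opposite directions from the stretch printed above. *Hadha* (ENSMUSG00000025745, chr5:30118304-30155162, minus strand) was at 104, 95.8 and 104 CPM in the shControl libraries without stimulation and at 81.6, 76.5 and 80.9 CPM in their sh*Ppargc1b* counterparts. With IFN-β it was at 107, 101 and 108 CPM against 87.4, 79.7 and 87.6 CPM. Every knocked-down library lay below every control library, at log2 fold changes of -0.35 ± 0.05 (adjusted p = 9.5e-05) in unstimulated and -0.31 ± 0.05 (adjusted p = 0.00025) in IFN-β-treated cells.

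*Hadhb* (ENSMUSG00000059447, chr5:30155248-30184593, plus strand) was at 31.4, 32.1 and 31.8 CPM in the shControl libraries without stimulation and at 19.9, 19.0 and 22.4 CPM in their sh*Ppargc1b* counterparts. In IFN-β-treated cells it was at 25.2, 25.1 and 25.9 CPM against 18.0, 16.1 and 17.0 CPM. The 4 groups did not overlap, and the log2 fold changes of -0.63 ± 0.06 (adjusted p = 3.1e-06) in unstimulated and -0.58 ± 0.06 (adjusted p = 1.1e-05) in IFN-β-treated cells stand beside -0.35 and -0.31 for *Hadha*. The *Hadhb* to *Hadha* ratio was 0.303, 0.335 and 0.306 in unstimulated shControl and 0.244, 0.248 and 0.277 in unstimulated sh*Ppargc1b*. With IFN-β the ratio was 0.235, 0.249 and 0.239 against 0.206, 0.202 and 0.194. It was therefore lower under knockdown in each condition, by 0.29 and 0.26 on the log2 scale, with groups that did not overlap. *Hadhb* has a near-identical processed pseudogene, *Gm13910* (99.79% identity over 1428 bases), and a more distant copy, *Gm9108* (97.616% over 1426 bases). The count table assigned 738 reads to *Gm13910*, 8 to *Gm9108* and 16645 to *Hadhb* over all libraries, and reads that fit more than 1 place were not counted, so the level of *Hadhb* is uncertain.

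*Hadh* (ENSMUSG00000027984, chr3:131233419-131272101, minus strand) encodes the matrix 3-hydroxyacyl-CoA dehydrogenase that prefers medium and short chains. The 3 unstimulated shControl libraries gave 26.5, 27.5 and 25.6 CPM and the 3 unstimulated sh*Ppargc1b* libraries 20.7, 19.0 and 19.6 CPM. After IFN-β the values were 13.7, 12.8 and 14.9 CPM in shControl and 12.3, 10.5 and 12.2 CPM in sh*Ppargc1b*. Control and knocked-down libraries were well apart in unstimulated cells and separated by a narrow gap with IFN-β. The log2 fold change was -0.43 ± 0.07 (adjusted p = 0.00046) unstimulated and -0.24 ± 0.08 (adjusted p = 0.0295) with IFN-β. The latter call was lost in 11 of 19 alternatives, over all of which the adjusted p ranged from 0.0136 to 0.133, and it was lost on leaving out any 1 of 8 libraries: each of the 3 unstimulated shControl libraries, replicates 1 and 3 of IFN-β-treated shControl, replicates 2 and 3 of unstimulated sh*Ppargc1b* and replicate 2 of IFN-β-treated sh*Ppargc1b*.

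*Acaa2* (ENSMUSG00000036880), the matrix 3-ketoacyl-CoA thiolase that closes the cycle, was at 21.3, 22.0 and 24.5 CPM in the shControl libraries without stimulation and at 13, 13.6 and 13.9 CPM in their sh*Ppargc1b* counterparts. With IFN-β it was at 17.1, 16.6 and 18.9 CPM against 11.3, 10.5 and 11.7 CPM. All 6 knocked-down libraries lay below all 6 control libraries. The log2 fold changes were -0.74 ± 0.07 (adjusted p = 2.9e-06) in unstimulated and -0.66 ± 0.07 (adjusted p = 1.4e-05) in IFN-β-treated cells, which left 59.7% and 63.6% of the control level. Across the 12 libraries *Acaa2* and *Hadhb* had the most similar profiles of any pair among the 10 genes, with a root mean square difference of 0.09 in centred log2 CPM. The least similar were *Acadl* and *Hadh*, at 0.93. The plot of knockdown differences sets the 10 genes side by side.

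**Figure D2:**
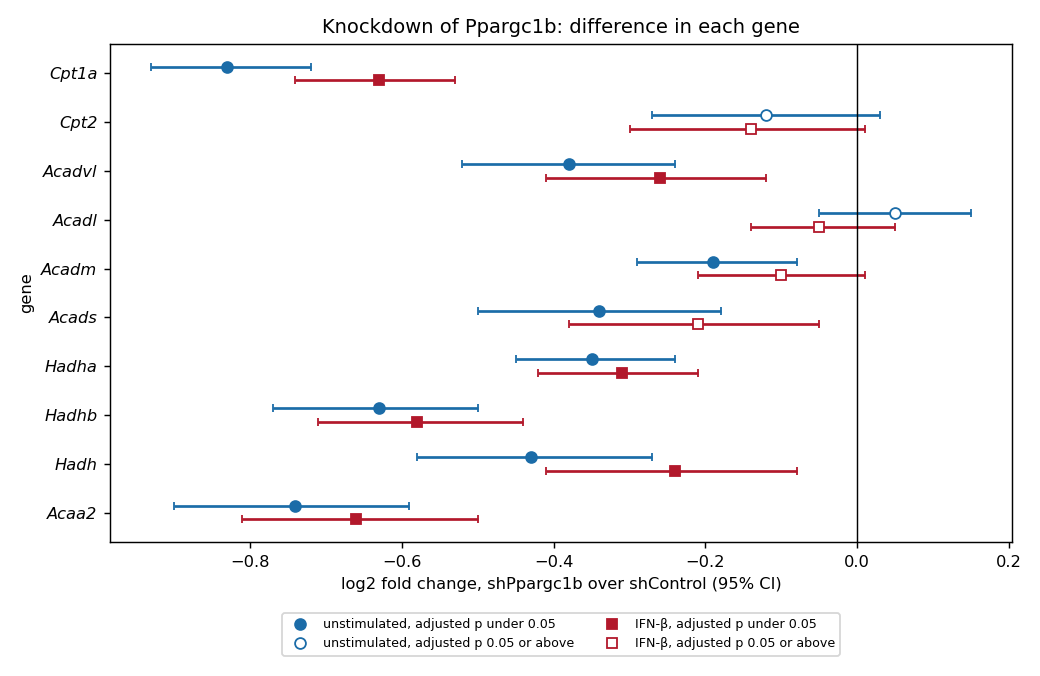
Log2 fold change of sh*Ppargc1b* over shControl (horizontal axis) with 95% confidence intervals for the 10 genes, in blue circles for unstimulated and red squares for IFN-β-treated cells; filled symbols passed an adjusted p of 0.05. *Cpt1a*, *Hadhb* and *Acaa2* lie between -0.83 and -0.58 in both conditions, whereas the intervals of *Cpt2* and *Acadl* span 0 in both.

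Transcripts of the pathway moved in different directions with IFN-β. With TMM scaling 2 of 10 rose in shControl cells, *Cpt1a* (which turned to -0.07 with library totals) and *Acadl*, where 23.7% of all tested genes rose, and 6 fell, where 24.6% of all tested genes fell. In sh*Ppargc1b* cells 2 of 10 rose and 6 fell, beside 21.4% and 21.2% of all tested genes. *Cpt2* and *Hadha* passed in neither with TMM scaling, whereas with library totals *Cpt2* fell in both and *Hadha* in shControl. The libraries of the 2 conditions did not overlap for 8 of 10 genes in shControl and 8 of 10 in sh*Ppargc1b*, beside 56.7% and 50.1% of all tested genes. The median log2 fold change of the 10 was -0.34 in shControl and -0.25 in sh*Ppargc1b*, beside -0.03 and -0.02 for all genes. Scaling by library totals in place of TMM moved the median of all genes to -0.27 in shControl and -0.22 in sh*Ppargc1b* and the share of calls that were higher from 49.0% to 23.9% and from 50.2% to 23.7%. Relative to those medians the 10 genes kept their differences to within 0.01 on the log2 scale.

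*Acadl* roughly doubled. Every IFN-β-treated library, at 107 to 121 CPM, exceeded every unstimulated library, at 57.8 to 62.7 CPM. The log2 fold change was 1.01 ± 0.05 (adjusted p = 4.7e-11) in shControl and 0.91 ± 0.05 (adjusted p = 2.2e-10) in sh*Ppargc1b*, and with library totals it was 0.77 and 0.71. The direction and the call were the same in all 19 alternatives of each comparison. *Cpt1a* rose by less, with a log2 fold change of 0.17 ± 0.05 (adjusted p = 0.00786) in shControl and 0.37 ± 0.05 (adjusted p = 1.9e-05) in sh*Ppargc1b*, although with library totals the shControl value was -0.07 (adjusted p = 0.277), which is 0.21 above the median of all genes on that scale. The IFN-β-treated sh*Ppargc1b* libraries, at 89.9 to 103 CPM, did not reach the unstimulated shControl libraries.

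The 6 genes that fell with IFN-β were *Acadvl*, *Acadm*, *Acads*, *Hadhb*, *Hadh* and *Acaa2*. *Hadh* had the largest fall, to 52.0% of the unstimulated level in shControl and 59.1% in sh*Ppargc1b*, with log2 fold changes of -0.94 ± 0.07 (adjusted p = 3.6e-08) in the former and -0.76 ± 0.08 (adjusted p = 7.2e-07) in the latter. *Acadm* followed at -0.55 ± 0.05 (adjusted p = 1.9e-07) and -0.46 ± 0.05 (adjusted p = 2e-06). *Acadvl*, whose exons overlap those of *Dvl2* (-0.35 and -0.29), had values of -0.46 and -0.35 in shControl and sh*Ppargc1b*, respectively. In the same order *Acads* had -0.36 and -0.23, *Acaa2* -0.36 and -0.28 and *Hadhb* -0.32 and -0.27. Of these, the fall of *Acads* in sh*Ppargc1b* (adjusted p = 0.0234) was lost in 4 of 19 alternatives. They were the fit to the 6 libraries compared (adjusted p = 0.0575) and the fits without replicate 1 or 3 of unstimulated sh*Ppargc1b* or replicate 1 of IFN-β-treated sh*Ppargc1b* (adjusted p = 0.0893 to 0.11). *Hadha* had log2 fold changes of 0.06 (95% CI -0.04 to 0.17) and 0.09 (95% CI -0.01 to 0.20), and with library totals these were -0.18 and -0.11. *Cpt2*, at 0.00 and -0.03 with TMM, was at -0.24 and -0.23 with library totals.

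**Figure D3:**
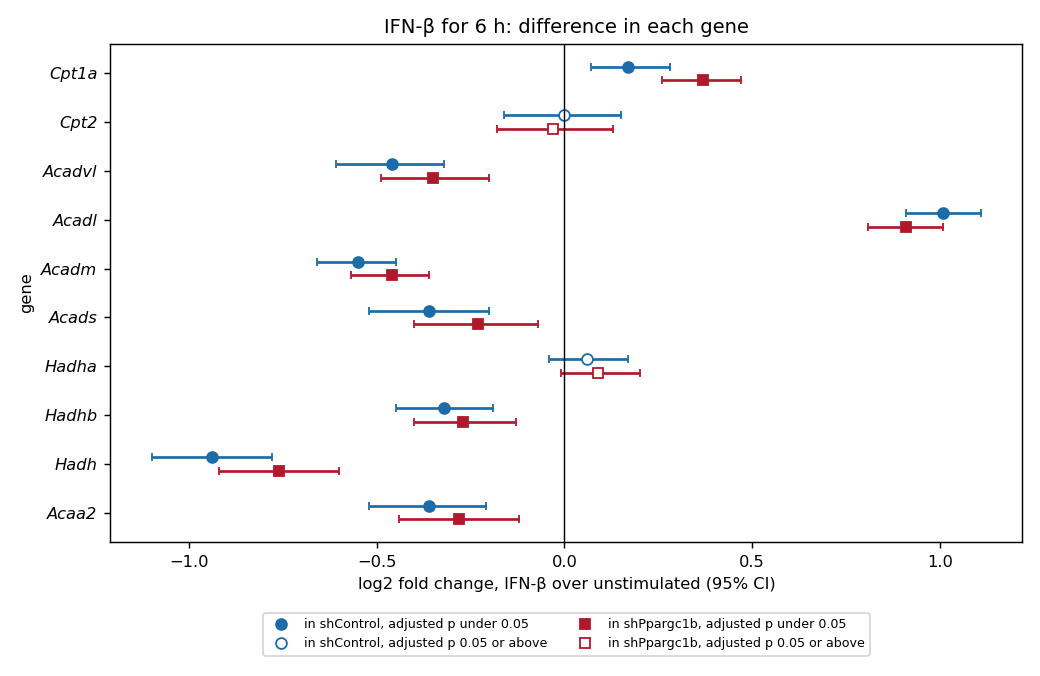
Log2 fold change of IFN-β over unstimulated (horizontal axis, TMM scaling) with 95% confidence intervals for the 10 genes, in blue circles for shControl and red squares for sh*Ppargc1b*; filled symbols passed an adjusted p of 0.05. *Acadl* stands apart at 1.01 and 0.91, *Cpt1a* is at 0.17 (-0.07 with library totals) and 0.37, *Cpt2* and *Hadha* lie near 0, and the other 6 genes lie between -0.94 and -0.23.

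*Acadl* rose while the other acyl-CoA dehydrogenases fell, and the ratios between them shifted with IFN-β. The *Acadl* to *Acadm* ratio went from 1.24 ± 0.0384 to 3.65 ± 0.224 with IFN-β in shControl and from 1.46 ± 0.0666 to 3.78 ± 0.315 in sh*Ppargc1b*. The *Acadl* to *Acadvl* ratio went from 2.90 ± 0.213 to 8.05 ± 0.0783 and from 3.91 ± 0.0369 to 9.40 ± 0.945. *Hadhb* to *Hadha* moved the other way, from 0.314 ± 0.0177 to 0.241 ± 0.00726 and from 0.257 ± 0.0179 to 0.201 ± 0.00641. None of these IFN-β-treated groups overlapped its unstimulated group. A ratio within a library does not depend on the scaling.

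**Figure D4:**
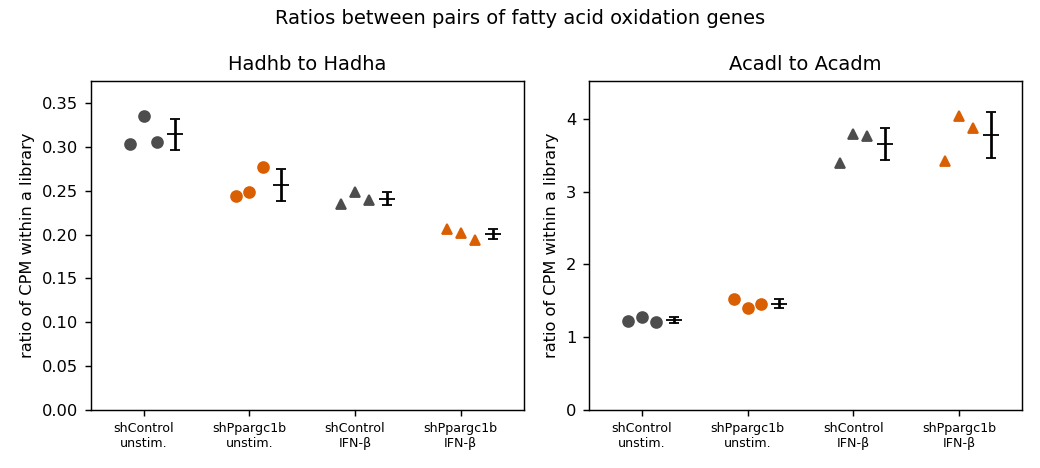
Ratio of CPM within each library for *Hadhb* to *Hadha* (left) and *Acadl* to *Acadm* (right), with circles for unstimulated and triangles for IFN-β-treated cells, grey for shControl and orange for sh*Ppargc1b*; bars give mean ± SD of 3 libraries. *Hadhb* to *Hadha* runs from 0.314 in unstimulated shControl down to 0.201 in IFN-β-treated sh*Ppargc1b*, and *Acadl* to *Acadm* from 1.24 up to 3.78.

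To compare genes, levels were expressed per kilobase of exon (FPKM, the CPM divided by the exon length in kilobases). In unstimulated shControl cells *Acadl* was at 29.5 FPKM, *Cpt1a* at 17.3, *Acaa2* at 14.9, *Acadm* at 12.3 and *Hadha* at 11.6 FPKM, and the other 5 genes were between 4.82 and 7.61 FPKM. The order depended on the length used: with the principal transcript, an alternative chosen after seeing the data, *Acadl* (30.9 FPKM) and *Cpt1a* (30.6 FPKM) differed by less than the SD of *Acadl* (0.875), *Hadha* was at 25.2 and *Hadhb* at 15.5 FPKM, and with coding length *Cpt1a* came first, at 56.8 against 45.9 FPKM for *Acadl*. *Cpt2* was last of the 10 by principal transcript and coding length and *Hadhb* by exon length. The summed FPKM of the 10 genes by exon length was 116 ± 1.2 in unstimulated shControl and 93.2 ± 2.22 in unstimulated sh*Ppargc1b*, and 135 ± 2.74 against 115 ± 3.27 with IFN-β. *Acadl* made up 25.4 ± 0.724% of the sum in unstimulated shControl and 32.9 ± 0.093% in unstimulated sh*Ppargc1b*, and 44.2 ± 1.23% and 50.2 ± 2.15% with IFN-β. The sums and shares depend on the exon length used and were not computed with the other lengths. The sums, unlike the shares, also depend on the TMM scaling.

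The difference between the knockdown effects with and without IFN-β was tested as an interaction. With edgeR 0 of 10 genes passed, where 0.73% of all tested genes did, and *Cpt1a* alone had an unadjusted p under 0.05, a count of 1 that DESeq2 and limma-voom also gave beside 0 adjusted calls. Its interaction was 0.19 ± 0.07 on the log2 scale (95% CI 0.05 to 0.34, adjusted p = 0.284), meaning a smaller fall under knockdown with IFN-β. The other 9 values ran from -0.10 for *Acadl* to 0.18 for *Hadh* (adjusted p = 0.61).

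Of 51 partner genes in 7 lists around the pathway, 47 had enough reads to be tested. In unstimulated cells 17 fell and 5 rose under knockdown, where 11.1% of all genes fell and 12.4% rose, and with IFN-β 17 fell and 2 rose, where 12.7% and 11.5% did. These counts include *Ppargc1b*, whose fall the hairpin fixed, and without the regulators 13 of 41 fell and 5 rose unstimulated and 14 fell and 1 rose with IFN-β. The lists were chosen with earlier results of these data known.

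In the carnitine list 1 of 5 genes fell and 0 rose. *Crat*, the carnitine acetyltransferase that exports acetyl groups, was at 84.1, 80.5 and 84.6 CPM in the shControl libraries without stimulation and at 64.0, 61.4 and 64.2 CPM in their sh*Ppargc1b* counterparts. Its log2 fold change was -0.39 ± 0.05 (adjusted p = 4.4e-05), and -0.26 ± 0.05 (adjusted p = 0.00173) with IFN-β. In the electron transfer list 2 of 3 genes fell. *Etfa*, a subunit of electron transfer flavoprotein, which accepts electrons from the acyl-CoA dehydrogenases, had log2 fold changes of -0.30 ± 0.04 (adjusted p = 8.5e-05) in unstimulated and -0.24 ± 0.04 (adjusted p = 0.00073) in IFN-β-treated cells. *Etfdh*, the oxidoreductase that hands these electrons to ubiquinone, had -0.46 ± 0.05 (adjusted p = 1e-05) and -0.39 ± 0.05 (adjusted p = 5.7e-05). Among auxiliary mitochondrial enzymes 2 of 7 fell unstimulated and 3 of 7 with IFN-β. *Acat1*, the thiolase that acts on acetoacetyl-CoA, was at 33.5, 31.2 and 35.5 CPM in the shControl libraries without stimulation and at 18.6, 18.2 and 20.9 CPM in their sh*Ppargc1b* counterparts, with log2 fold changes of -0.80 ± 0.09 (adjusted p = 1.3e-05) unstimulated and -0.87 ± 0.10 (adjusted p = 1e-05) in IFN-β-treated cells.

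Uptake and activation was the list in which 5 genes rose, of 9 tested, and 2 fell in unstimulated cells. With IFN-β 1 rose under knockdown and 2 fell. The gene that rose in both was *Cd36*, a membrane protein that takes up fatty acids, named here after its values were seen. It was at 1150 to 1270 CPM in shControl against 1500 to 1550 CPM in sh*Ppargc1b* without IFN-β and at 1030 to 1050 against 1350 to 1370 CPM with it, at 0.35 ± 0.04 (adjusted p = 1.3e-05) and 0.38 ± 0.04 (adjusted p = 5.9e-06) on the log2 scale. *Acsl1*, an acyl-CoA synthetase, was at 261, 280 and 255 CPM in the shControl libraries without stimulation and at 362, 416 and 356 CPM in their sh*Ppargc1b* counterparts, a log2 fold change of 0.51 ± 0.07 (adjusted p = 5.7e-05). With IFN-β its difference was 0.13 ± 0.07 (adjusted p = 0.179), which passed with the library code block (0.14, adjusted p = 0.04) and with every gene of at least 1 count (0.15, adjusted p = 0.0172). *Fabp4*, a cytosolic fatty acid carrier, was at 51.8, 51.1 and 49.6 CPM against 24.8, 22.1 and 22.1 CPM, the largest fall of that list at -1.14 ± 0.07 (adjusted p = 2.9e-08). With IFN-β *Fabp4* was at 63.8, 63.7 and 72.2 CPM against 45.8, 38.9 and 42.2 CPM, a log2 fold change of -0.65 ± 0.07 (adjusted p = 5.2e-06). Of the malonyl-CoA genes 1 of 3 fell. *Acacb*, whose product makes the malonyl-CoA that inhibits CPT1, had 29 to 164 counts per library and was at 1.71, 1.82 and 2.04 CPM in the shControl libraries without stimulation and 0.788, 0.424 and 0.635 CPM in their sh*Ppargc1b* counterparts. Its log2 fold change was -1.60 ± 0.22 (adjusted p = 6.9e-05), and -0.99 ± 0.21 (adjusted p = 0.00231) with IFN-β. In the peroxisomal list 5 of 14 tested genes fell in each condition and 0 rose. *Abcd2*, a peroxisomal transporter of very-long-chain acyl-CoA, was at 83.8, 80.9 and 75.8 CPM against 37.4, 31.1 and 32.6 CPM, with a log2 fold change of -1.25 ± 0.07 (adjusted p = 2.5e-08) unstimulated and -1.20 ± 0.08 (adjusted p = 7.8e-08) with IFN-β.

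Of 8 regulators, *Ppargc1a*, at 1 to 11 counts per library, and *Ppara*, at 0 to 3 counts, were too low to test. The targeted gene *Ppargc1b* had a log2 fold change of -0.83 ± 0.10 (adjusted p = 3.2e-05) unstimulated and -0.57 ± 0.11 (adjusted p = 0.00095) with IFN-β. Another co-activator of the family, *Pprc1*, had a knockdown log2 fold change of 0.21 ± 0.10 (adjusted p = 0.155) unstimulated, which passed at 0.33 (adjusted p = 0.0205) without replicate 1 of unstimulated sh*Ppargc1b* and at 0.24 (adjusted p = 0.0101) with every gene of at least 1 count, and it rose under knockdown in IFN-β-treated cells, at 0.47 ± 0.11 (adjusted p = 0.0044). *Esrra*, the gene of estrogen-related receptor α, had log2 fold changes of -0.21 ± 0.04 (adjusted p = 0.00241) in unstimulated and -0.34 ± 0.04 (adjusted p = 3.3e-05) in IFN-β-treated cells, and the former call was lost with every gene of at least 1 count (-0.19, adjusted p = 0.0568). *Rxra*, the common partner of PPARs, had -0.61 ± 0.06 (adjusted p = 2.7e-06) and -0.31 ± 0.06 (adjusted p = 0.00147). *Pparg* was at -0.52 ± 0.09 (adjusted p = 0.00064) unstimulated and -0.15 ± 0.10 (adjusted p = 0.315) with IFN-β, and *Ppard* at 0.07 and 0.09 (adjusted p = 0.567 and 0.416).

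**Figure D5:**
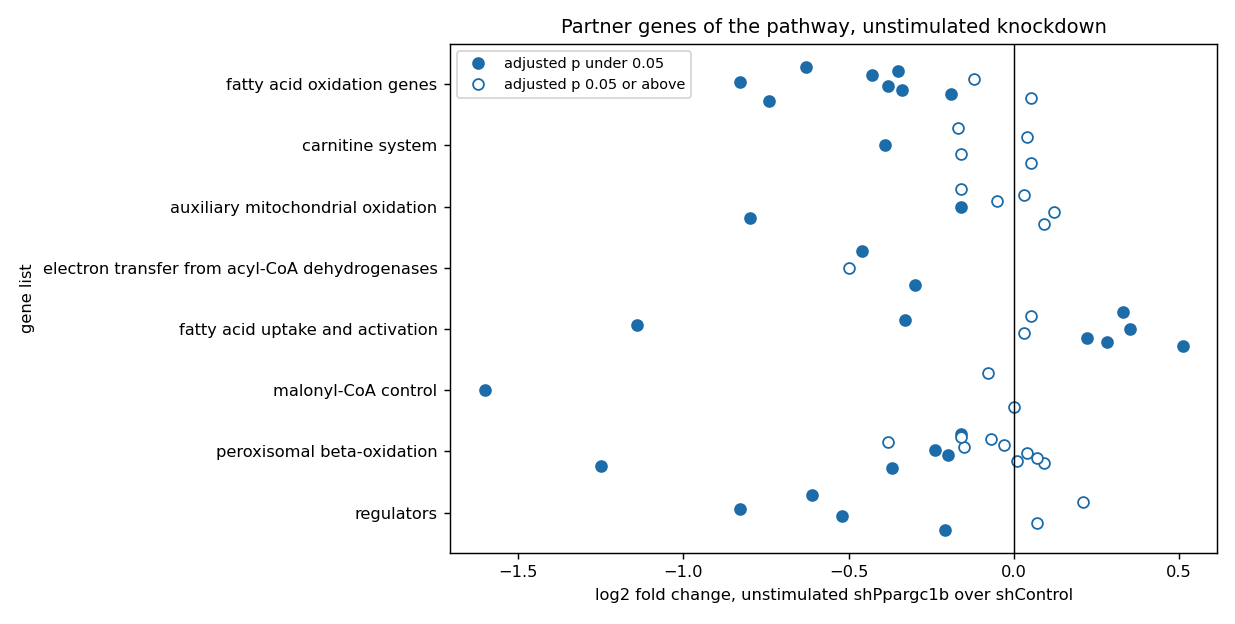
Log2 fold change of unstimulated sh*Ppargc1b* over shControl (horizontal axis) for the 10 fatty acid oxidation genes and the 47 tested partner genes, 1 point per gene, by list; filled points passed an adjusted p of 0.05. Passing points lie to the left of 0 in every list except uptake and activation, where 5 lie to the right, up to 0.51 for *Acsl1*; *Acacb* is farthest left at -1.60.

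Outside the pathway, the genes whose profile over the 12 libraries was nearest to that of *Cpt1a* were *Gda*, *Sulf2*, *Klhl24*, *Aph1c* and *Cdc42ep4*, with root mean square differences of 0.09 to 0.11 in centred log2 CPM among 8773 genes with a mean log2 CPM of at least 3. *Gda* had knockdown log2 fold changes of -0.95 and -0.77 and IFN-β changes of 0.25 and 0.44. The genes nearest to the mean profile of the 10 were *Ndufs1*, *Atp5h*, *Cerk*, *Atp5d* and *Tmem164*, with differences of 0.04 to 0.05. *Ndufs1*, a subunit of respiratory complex I, had knockdown changes of -0.37 and -0.30 and IFN-β changes of -0.20 and -0.13. These distances are descriptions over libraries that both profiles share.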

How the data were processed

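RNA-seq was performed on 12 libraries of mouse DCs in 4 groups of 3. Ribosomal RNA was removed and libraries were sequenced as pairs. The authors trimmed the reads with Trim Galore, mapped them to mm10 with STAR and counted them per GENCODE M20 gene. The submitters' processing notes give Trim Galore 0.6.0 and STAR 2.7.8a. The deposited values are raw counts per gene, neither normalized nor pooled, and the strand setting of the counting is not given in the sources used here. Libraries were grouped by their labels, which do not say whether replicates came from separate cultures or animals, so p-values measure only the spread between these samples.

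Counts were fitted with edgeR 4.0.16 in R 4.3.3. Genes were kept by filterByExpr (minimum count 10, minimum total 15), scaled by TMM and fitted by a quasi-likelihood model with 1 mean per group over all 12 libraries. The edgeR p-values were Benjamini-Hochberg adjusted across the 18228 genes tested, and 0.05 was the threshold. Alternatives were library totals, DESeq2 1.42.0, limma 3.58.1 (voom), other count filters, a block for runs of consecutive library codes in the labels, only the libraries compared, and leaving out each library. Exon lengths, gene positions and overlaps came from GENCODE M21 (GRCm38) and promoters from RefSeq (GRCm38.p6); transcripts of the 10 genes were matched to those of other genes at 97% identity over at least 100 bases.

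All 10 genes are named. Partner genes named are, in each list, the largest rise and fall among those past the threshold in unstimulated knockdown, all that passed in the carnitine and electron transfer lists, and the co-activators and receptors. The 5 nearest genes by profile are also named. The genes, lists and rules were chosen with earlier results of these data known.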

Additional observations from a re-analysis of the deposited data

Results flagged for a closer look

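*Fabp4*, a partner gene, had a knockdown effect that differed between the conditions: it was -1.14 without IFN-β and -0.65 with it, and the interaction was 0.49 ± 0.09 on the log2 scale (edgeR, adjusted p = 0.0254). All 3 knocked-down libraries were below all 3 control libraries in each condition. Over the 18 alternatives the interaction ranged from 0.42 to 0.57 and the adjusted p from 1.1e-05 to 0.102. The call was lost without each of 8 of the 12 libraries, where the adjusted p was 0.0583 to 0.102: replicates 1 and 3 of unstimulated shControl, 1 and 2 of IFN-β-treated shControl, 2 and 3 of unstimulated sh*Ppargc1b* and 1 and 3 of IFN-β-treated sh*Ppargc1b*.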

How the results depend on the processing

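Of 940 values of the 10 genes under alternatives, 898 kept their direction and their side of the threshold and 19 changed sign. Of those that kept their sign, 18 lost the call and 5 gained it. Among the sign changes, with library totals and for IFN-β in shControl, *Cpt1a* also lost its call (adjusted p = 0.277) and *Hadha* gained one (adjusted p = 0.0076). Leaving out each library gave 7 to 8 of the 10 genes called for unstimulated knockdown, 5 to 6 for knockdown with IFN-β, 8 to 8 for IFN-β in shControl, 7 to 9 for IFN-β in sh*Ppargc1b* and 0 to 0 for the interaction. With library totals the IFN-β value turned to -0.07 for *Cpt1a* in shControl and to -0.18 and -0.11 for *Hadha* in shControl and sh*Ppargc1b*, and that of *Cpt2* (0.00) turned to 0.01 in DESeq2, 0.01 in limma-voom and 0.02 in the fit to 6 libraries. The interaction of *Cpt2* (-0.03) turned to 0.01 with library totals. Over the fits that each left out a library, the *Cpt2* value for IFN-β ranged from -0.06 to 0.07 in shControl and from -0.05 to 0.02 in sh*Ppargc1b*, its interaction from -0.09 to 0.04, and the *Hadha* interaction (0.03) from -0.02 to 0.09, so that each took both signs. *Acadm* in unstimulated knockdown was also lost with every gene of at least 1 count (adjusted p = 0.0878). The number of genes over the whole table with an interaction went from 133 to 84 with library totals, 449 in DESeq2, 525 with every gene of at least 1 count and 425 with the library code block, and to between 36 and 271 on leaving out a library; the cause was not tested. The labels carry no replicate numbers by which libraries could be paired, so a block was fitted for runs of consecutive library codes, each with 1 library per group. Over 18 pairs of libraries from the same run, deviations from group means correlated at 0.0276 to 0.146 (median 0.0867). Over 36 pairs from different runs the correlations were -0.154 to 0.0565 (median -0.0436). Libraries of a run were thus more alike by the median, which the main fit does not model. What the runs stand for was not tested. As the same-run values were not above 0.1 throughout, the block was kept as an alternative. With the block *Hadha* passed for IFN-β in sh*Ppargc1b* (adjusted p = 0.0327) and *Acsl1* for knockdown with IFN-β. Of 550 values of the named partner genes, 537 kept their direction and side of the threshold, 9 lost the call and 4 gained it.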
